A study of Homo sapiens with 10 samples.

Results

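The RUNX transcription factors RUNX1, RUNX2 and RUNX3 and their partner subunit CBFB were followed as transcripts in HCT116 cells, a human colorectal carcinoma line, with and without an intact CD276 gene. These 4 genes, of 58050 gene identifiers in the expression table, were chosen by symbol. The family was picked from earlier results of the same comparison, in which RUNX1 was lower in the edited cells and holds a predicted off-target site of the CD276 guide. The levels of the 4 genes in the 2 groups are therefore given as a description, with no p-value. Whether they were called in the comparison across genes is given for reference, and nothing is read from it.

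RNA-seq had been run on 5 cultures of HCT116-WT cells (genotype WT) and 5 cultures of HCT116-CD276KO cells (genotype CD276KO), all grown in McCoy's 5A medium with 10% FCS. HCT116-CD276KO cells had been electroporated with Cas9 and a guide against CD276, and a scrambled guide served as the control of the editing protocol. The labels do not state for each library whether the HCT116-WT cells had received the scrambled guide. The edited cells were 1 clone grown from a single sorted cell, so that a loss of CD276 and a difference of this clone from the parental cells cannot be told apart.

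A RUNX protein binds DNA through its Runt domain, and CBFB, which does not bind DNA itself, joins the Runt domain and increases its affinity for DNA. RUNX1 is best known as a regulator of blood cell formation, RUNX2 of bone formation, and RUNX3 of T cells, sensory neurons and the gastrointestinal epithelium, where it is often silenced in tumours. Each RUNX gene has a distal and a proximal promoter, and the RUNX proteins recruit corepressors of the TLE family or acetyltransferases such as EP300 according to context.

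Expression is given in TPM, a measure of transcript abundance that is corrected for transcript length and adds up to 1000000 in each library, so that levels can be set side by side between genes. The read depth behind each value is not kept in TPM and is unknown here. CD276 fell from 45.3 ± 6.17 TPM (SD, n = 5) in HCT116-WT to 5.46 ± 1.21 TPM (SD, n = 5) in HCT116-CD276KO libraries, a fall seen in 5 of 5 edited libraries (p = 0.00794 by exact permutation, two-sided, which is the minimum this design allows). Of 8 epithelial markers 5 had a mean of at least 1 TPM (EPCAM, KRT8, KRT18, KRT19 and CDH1), while the colonic marker CDX1 was listed at 0 in every library. The summed level of the 8 ranged from 4173 to 4942 TPM in HCT116-WT and from 3306 to 3773 TPM in HCT116-CD276KO libraries. None of 11 leukocyte markers reached a mean of 1 TPM, with sums of 0.2 to 0.64 TPM and 0.2 to 0.51 TPM and GATA1 at 0 throughout. Of 8 mesenchymal and endothelial markers COL1A1 alone did, with sums of 6.33 to 9.58 TPM in HCT116-WT and 4.62 to 7.82 TPM in HCT116-CD276KO libraries. Long and short transcripts deviated differently from library to library. Over genes, Spearman's rho between deviation and transcript length, a description only, was lowest in HCT116-CD276KO replicates 2 (-0.517) and 3 (-0.489) and highest in HCT116-WT replicate 1 (0.425). The part of this trend and of the epithelial sum in the results below was not tested, other than by the corrected values given beside them.

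The sequences below show the target sequence of the guide against CD276 and the guide's predicted site in RUNX1, the feature for which RUNX1 had been listed. Both are written 5′ to 3′ with the PAM as the last 3 bases, and capitals mark the bases at which they differ.
Guide: ttcGtgagCaTccgggattTcgg
RUNX1 site: ttcCtgagTaGccgggattAcgg
The RUNX1 site lies at chr21:35022770-35022792 of hg38 on the minus strand, the strand of RUNX1, and the full sequence occurs 1 time in the assembled chromosomes. It differs from the guide by 4 substitutions, G4C, C9T, T11G and T20A, counted from 1 at the 5′ end of the guide. By the GENCODE 44 model it falls in intron 2 of the reference transcript, an intron of 156 kb, 26.5 kb downstream of the start of that transcript and 134 kb upstream of the proximal start listed by RefSeq. No exon of the reference transcript overlaps it. Whether the site was edited in the clone was not tested, because TPM per gene hold no sequence.

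Among RefSeq promoters (GRCh38.p14, 250 bases before to 50 bases after a start site) 5 windows matched 3 of the 4 genes: 2 for RUNX2, 2 for RUNX3 and 1, the proximal one, for RUNX1. CBFB had no entry. Each window was searched on both strands for the RUNX recognition motif TGTGGT, which reads ACCACA on the other strand. The distal RUNX2 window held 4 matches and the distal RUNX3 window 2. No match was found in the proximal windows of RUNX1, RUNX2 and RUNX3. Of all 35116 RefSeq promoters, 13.1% held at least 1 match and 1.31% at least 2. The distal RUNX2 and RUNX3 windows also shared a run of 18 bases with 2 motif matches, which was found in no other promoter of the table. It is shown here within 30 bases of each promoter because it is the longest stretch that any of these promoters share, with the motif in capitals, on the strand of the gene.
RUNX2 distal: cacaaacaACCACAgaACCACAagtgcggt
RUNX3 distal: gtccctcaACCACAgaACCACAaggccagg
The RUNX2 stretch is at chr6:45328338-45328367 on the plus strand and the shared run begins at base 15 counted from the start site. The RUNX3 stretch is at chr1:24965120-24965149 on the minus strand, and there the shared run begins 133 bases before the start site. These matches are a description of the letters in the windows and do not show binding.

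In HCT116-WT cells the order of the levels was CBFB, RUNX3, RUNX1 and RUNX2. CBFB stood at 166 ± 7.47 TPM (SD, n = 5), higher than 96.6% of the 28202 genes above 0 TPM in HCT116-WT cells. RUNX3 stood at 18.4 ± 3.89 TPM and RUNX1 at 10.7 ± 1.16 TPM (SD, n = 5 each). RUNX2 stood at 0.53 ± 0.111 TPM (SD, n = 5). No neighbours in this order overlapped over the HCT116-WT libraries, where the lowest RUNX3 value was 14.54 TPM and the highest RUNX1 value 11.9 TPM. The order was the same in HCT116-CD276KO cells, again without overlap between neighbours. RUNX2, the bone regulator, was below the mean of 1 TPM required for the comparison across genes, whereas the other 3 genes passed it.

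RUNX1 (ENSG00000159216, chromosome 21 from 34787801 to 36004667, minus strand) was measured at 11.51, 9.41, 11.19, 9.51 and 11.9 TPM in the HCT116-WT libraries, in order of replicate number. The HCT116-CD276KO libraries gave 6.79, 6.06, 4.74, 6.35 and 7.61 TPM. Every edited library was below every HCT116-WT library. The mean of the edited cells was 6.31 ± 1.05 TPM (SD, n = 5), which is 58.9% of the HCT116-WT mean, and the log2 change was -0.69 on the log2(TPM + 1) scale. The lowest value was that of HCT116-CD276KO replicate 3, a library with one of the strongest negative trends with transcript length, and the reference transcript of RUNX1 has 5971 bases. Without HCT116-CD276KO replicates 2 and 3 the log2 change was -0.56. After each library's trend with transcript length and GC content had been removed over the genes tested, it was -0.48. With the trend taken over all genes above 0 TPM it was -0.53, and there the groups still did not overlap.

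RUNX2 (ENSG00000124813, chromosome 6 from 45328157 to 45664349, plus strand) was low, with 0.62, 0.54, 0.34, 0.55 and 0.6 TPM across the HCT116-WT libraries in the same order. The HCT116-CD276KO libraries gave 0.28, 0.16, 0.15, 0.17 and 0.21 TPM. The groups did not overlap, and replicate 3 was the lowest of the HCT116-WT libraries. The mean of the edited cells was 0.194 ± 0.0532 TPM (SD, n = 5), 36.6% of the HCT116-WT mean. At such low values the size on a log scale depends on the pseudocount: the log2 change was -0.36 with 1 TPM added, -1.10 with 0.1 TPM added and -1.45 as the ratio of the means. The reference transcript has 5540 bases, and after the length and GC correction over all genes above 0 TPM the change was -0.22. There the groups all but touched. Relative to the HCT116-WT mean, the highest HCT116-CD276KO library stood at -0.07883 and the lowest HCT116-WT library at -0.07880 on the log2 scale. SUPT3H, on the opposite strand, overlaps the start of RUNX2. The libraries were strand-specific per the labels, but whether the counting used the strand is not given in the sources used here, so reads from the shared stretch cannot be assigned with certainty.

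RUNX3 (ENSG00000020633, chromosome 1 from 24899511 to 24965121, minus strand) was measured at 14.54, 18.22, 24.28, 15.29 and 19.51 TPM across the HCT116-WT libraries. The HCT116-CD276KO libraries gave 14.57, 16.99, 18.19, 14.31 and 15.63 TPM. The groups overlapped, and HCT116-WT replicate 3 was the highest of all 10 libraries. The mean of the edited cells was 15.9 ± 1.64 TPM (SD, n = 5) and the log2 change -0.18, less than the spread between replicates of 0.22 on the same scale. It was -0.08 with median-of-ratios factors and -0.04 with each library's length and GC trend removed. In these cells RUNX3 was the RUNX gene with the highest level.

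CBFB (ENSG00000067955, chromosome 16 from 67028984 to 67101058, plus strand) was measured at 176.43, 169.93, 166.16, 157.76 and 160.4 TPM across the HCT116-WT libraries. The HCT116-CD276KO libraries gave 184.48, 162.39, 154.59, 169.78 and 189.95 TPM. The highest and the lowest value of the 10 libraries were both among the edited cells, so that the groups overlapped. The mean of the edited cells was 172 ± 14.8 TPM (SD, n = 5) and the log2 change 0.05, against a spread between replicates of 0.10. With each library's length and GC trend removed it was 0.15. With that trend taken over all genes above 0 TPM it was 0.12, and the groups overlapped there too.

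For reference, 840 of the 13581 genes that averaged 1 TPM or more, 6.19%, were lower in HCT116-CD276KO cells without overlap, as was RUNX1 among the 3 members in this set. Over the 30818 genes above 0 TPM in any library the share was 3.38%, and 2 of the 4 members, RUNX1 and RUNX2, were among them. Calls rest on limma applied to log2(TPM + 1), with an adjusted p-value under 0.05. Called lower were 4.09% of the 13581 genes and called higher 0.781%, and of the 3 members RUNX1 was called lower. Over the 30818 genes above 0 TPM 1.47% were called lower, and 2 of the 4 members, RUNX1 and RUNX2, were called. After the length and GC correction 5.19% were called lower and 4.45% higher, and RUNX1 was the called member. As the members were picked from this comparison, nothing is read from these counts.

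**Figure D1:**
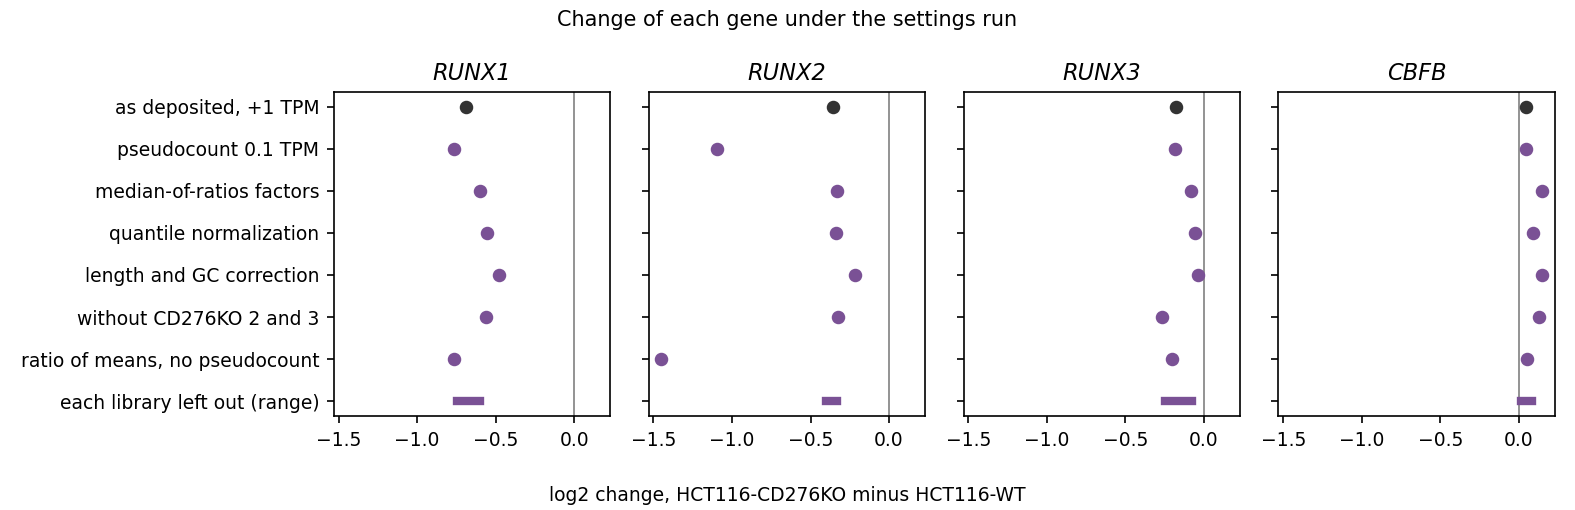
Log2 change of each of the 4 genes (x axis, HCT116-CD276KO minus HCT116-WT) under the settings on the y axis, with the top row as reported and the bar in the last row spanning the 10 fits that each left out 1 library. RUNX1 lies between -0.76 and -0.48, RUNX2 moves to -1.10 with 0.1 TPM added and to -1.45 as the ratio of the means, RUNX3 stays below 0 and CBFB above 0.

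The sum of RUNX1, RUNX2 and RUNX3 was 29.6 ± 4.27 TPM (SD, n = 5) in HCT116-WT and 22.4 ± 1.15 TPM (SD, n = 5) in HCT116-CD276KO cells. The sums ranged from 25.35 to 35.81 TPM and from 20.83 to 23.45 TPM, so the groups were apart. RUNX3 made up 61.7% ± 5.00 of the sum in HCT116-WT and 70.9% ± 5.09 in HCT116-CD276KO cells (SD, n = 5 each). These shares overlapped, since the highest HCT116-WT share was 67.8% and the lowest HCT116-CD276KO share 66.7%. RUNX1 made up 36.5% ± 4.55 and 28.2% ± 4.91 (SD, n = 5 each), and RUNX2 1.85% ± 0.535 and 0.869% ± 0.257. CBFB transcripts, which encode the common partner, outnumbered the RUNX sum 5.70-fold ± 0.840 in HCT116-WT and 7.69-fold ± 0.797 in HCT116-CD276KO cells (SD, n = 5 each), without overlap between the groups (at most 6.62-fold against at least 6.70-fold). These sums and ratios restate the values of the members as deposited, without the length and GC correction, and were not tested. In bulk RNA, fewer cells with a transcript and less of it per cell cannot be told apart.

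**Figure D2:**
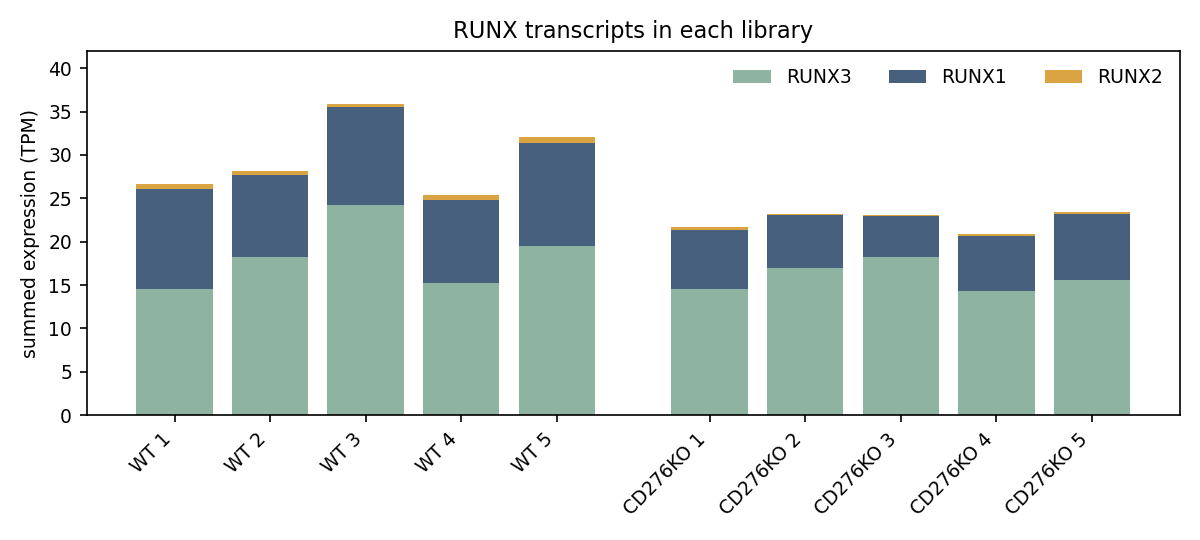
Stacked expression of RUNX3, RUNX1 and RUNX2 in TPM (y axis) in each of the 10 libraries (x axis). RUNX3 is the largest part of every bar, RUNX2 is barely visible, and the HCT116-CD276KO bars reach 20.83 to 23.45 TPM against 25.35 to 35.81 TPM for HCT116-WT.

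Genes next to the members were examined to see how the chromosome around each of them behaved. The 10 nearest genes tested on each side of a member were taken, 80 in all. Of these 2 were called lower and 1 higher, 3.75% against 4.87% of all genes tested, with a median log2 change of -0.06 against -0.09 for all genes. None of the 20 around RUNX1 was called by limma, and 3 had an unadjusted p-value under 0.05. Of all 13581 genes tested 2977 had one, and the counts of unadjusted p-values below stand beside that share. The nearest were RCAN1, an inhibitor of calcineurin, at a log2 change of 0.01 (standard error 0.08), and SETD4, a methyltransferase, at 0.10 (standard error 0.09), neither of which passed the test. Across the neighbours of RUNX1, up to 1240 kb away, the groups overlapped for 18 of 20 genes. GART, an enzyme of purine synthesis, and SIM2 were lower in HCT116-CD276KO cells without overlap (adjusted p = 0.0527 and 0.0689, limma). Of all genes tested 6.19% were. The one entry with a lower log2 change than RUNX1 was an unnamed Y RNA copy at -0.94 with a standard error of 0.79. It was listed at 24.91 TPM in HCT116-WT replicate 2 and at 0 in every other library. After the length and GC correction 1 of the 20 was called, GART, at -0.15 (adjusted p = 0.0386, limma). With median-of-ratios factors or quantile normalization another neighbour, CRYZL1, was the one called, higher at 0.26 (adjusted p = 0.0407, limma) and 0.25 (adjusted p = 0.0414, limma). Transcripts annotated inside RUNX1 stayed at or below 0.31 TPM in every library.

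Around RUNX2, 2 of 20 genes were called lower, both in each of the 10 fits without 1 library. ADGRF1, an adhesion G protein-coupled receptor at 1330 kb, fell from 71.9 ± 8.59 to 39.0 ± 8.45 TPM (SD, n = 5 each), a log2 change of -0.88 (standard error 0.14, adjusted p = 0.00442, limma). TNFRSF21, a death receptor at 1570 kb, fell from 48.3 ± 2.32 to 35.1 ± 4.30 TPM (SD, n = 5 each), a log2 change of -0.46 (standard error 0.09, adjusted p = 0.0106, limma). SUPT3H, the gene that overlaps RUNX2, had a log2 change of -0.21 (standard error 0.10) and was not called, nor was ENSG00000231769 on the other side. None of the 20 genes around RUNX3 was called by limma, and 2 had an unadjusted p-value under 0.05. CLIC4, a chloride channel protein beside RUNX3, stood at 94.4 ± 8.82 and 137 ± 30.1 TPM (SD, n = 5 each; adjusted p = 0.0607, limma). CLIC4 was called higher after the length and GC correction (adjusted p = 0.000698, limma) and without HCT116-CD276KO replicates 2 and 3 (adjusted p = 0.00187, limma). SYF2 on the other side, with a log2 change of 0.09 (standard error 0.08), was not called. Around CBFB, CKLF, a chemokine-like gene at 463 kb, was called higher, from 29.9 ± 2.41 to 40.7 ± 5.22 TPM (SD, n = 5 each), a log2 change of 0.43 (standard error 0.09, adjusted p = 0.0241, limma). The groups overlapped for CKLF, and without HCT116-CD276KO replicates 2 and 3 its adjusted p-value was 0.101 (limma). The call of CKLF was lost in 7 of the 10 fits without 1 library, with adjusted p-values between 0.0502 and 0.0729 without HCT116-WT replicates 1, 2, 4 or 5 or HCT116-CD276KO replicates 2, 3 or 4. CES3 and PHAF1, the nearest genes tested on the sides of CBFB, were not called, with log2 changes of -0.20 (standard error 0.15) and -0.11 (standard error 0.11).

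**Figure D3:**
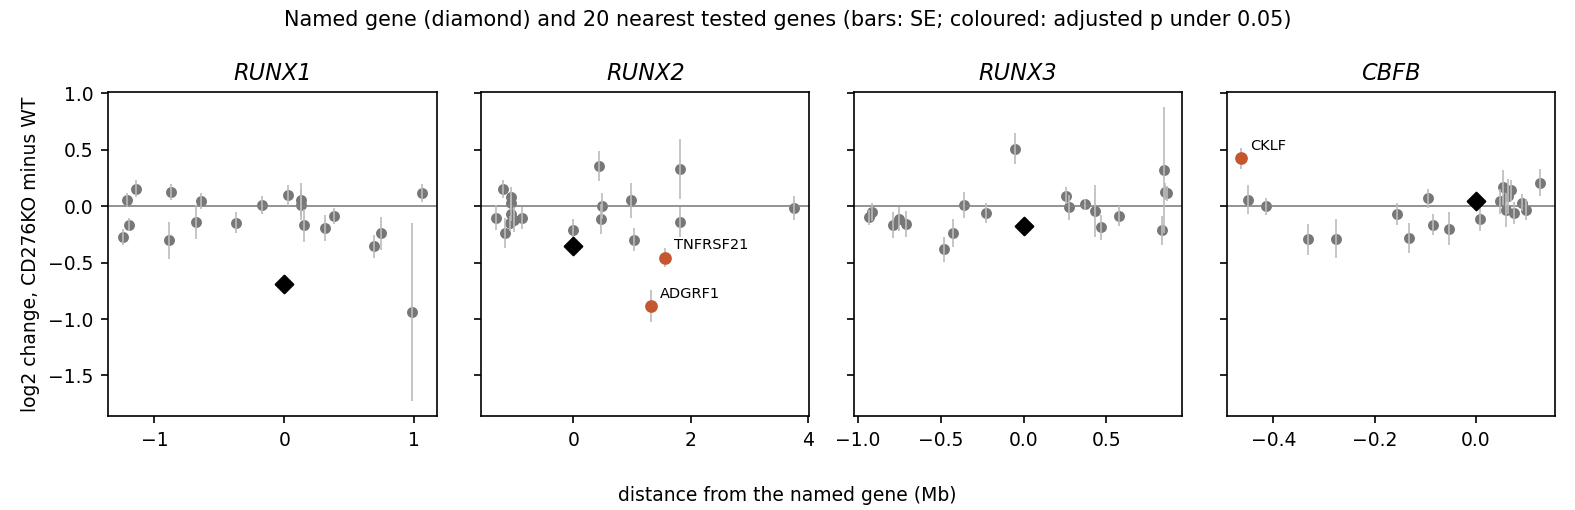
Log2 change (y axis, bars are standard errors) of the 20 nearest genes tested around RUNX1, RUNX2, RUNX3 and CBFB against their distance from that gene in Mb (x axis); the diamond is the gene itself and coloured points have an adjusted p-value under 0.05 from limma. RUNX1 at -0.69 lies below its neighbours other than the Y RNA copy at -0.94, which was above 0 TPM in HCT116-WT replicate 2 alone. The called genes are ADGRF1, TNFRSF21 and CKLF.

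Genes that work with RUNX proteins were then compared, from a list of 60 partners and modifiers, all of them in the table. Of the 51 that were tested 2 were called lower and 1 higher, 5.88% against 4.87% of all genes tested, and their median log2 change was -0.15 against -0.09. Among 15 tested corepressors 2 were called lower, TLE1 among them. TLE1, a Groucho-type corepressor that binds the carboxyl end of RUNX proteins, ranged from 13.75 to 16.46 TPM in HCT116-WT and from 9.24 to 11.75 TPM in HCT116-CD276KO libraries. The groups were apart, and the log2 change was -0.48 (standard error 0.08, adjusted p = 0.00608, limma), called in each of the 10 fits without 1 library.

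None of the 7 coactivators was called by limma, and 2 had an unadjusted p-value under 0.05. All 7 had a log2 change below 0, with a median of -0.43, and with median-of-ratios factors (median -0.33) or the length and GC correction 6 of 7 did. Of all 13581 genes tested 9243 had a log2 change below 0. With median-of-ratios factors 6665 of 13581 did, and with the length and GC correction 6322 of 13472. Without HCT116-CD276KO replicates 2 and 3 the median of the 7 coactivators was -0.09 and none had an unadjusted p-value under 0.05, and the log2 change of EP300 moved from -0.52 to -0.04. The acetyltransferase EP300 stood at 13.3 ± 2.13 and 9.86 ± 5.02 TPM, and its paralogue CREBBP at 11.9 ± 1.77 and 8.34 ± 2.36 TPM (SD, n = 5 each, HCT116-WT first). Their reference transcripts are long, 8779 and 10790 bases, and after the length and GC correction the median of the 7 was -0.18. PRMT1, an arginine methyltransferase that modifies RUNX1, stood at 531 ± 56.2 and 524 ± 65.0 TPM (SD, n = 5 each) with a reference transcript of 1328 bases. CARM1, another arginine methyltransferase, had a log2 change of -0.17 (standard error 0.11).

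Of 15 tested DNA-binding or signalling partners FOS was called higher. FOS, a subunit of AP-1, rose from 35.3 ± 4.72 to 49.4 ± 6.57 TPM (SD, n = 5 each), a log2 change of 0.48 (standard error 0.11, adjusted p = 0.0334, limma), with the groups apart. Without HCT116-WT replicate 1, 2, 4 or 5 or HCT116-CD276KO replicate 1, 2 or 4 its adjusted p-value was between 0.0505 and 0.0901. After the length and GC correction 3 of the 15 were called, all higher, 20% against 9.64% of all genes tested. FOS stood at 0.54 (adjusted p = 0.00801, limma). The others, named after their values were seen, were JUN at 0.29 and CEBPA at 0.32 (adjusted p = 0.0158 and 0.00472, limma). Without HCT116-CD276KO replicates 2 and 3 none of the 15 was called. The blood regulators SPI1, GATA1 and TAL1, with which RUNX1 acts in blood cells, were among the 7 partners below a mean of 1 TPM. None of 14 kinases, isomerases and ubiquitin enzymes that modify RUNX proteins was called by limma, and 1 had an unadjusted p-value under 0.05. It was CDK6, named after its values were seen, at -0.54 (standard error 0.17, adjusted p = 0.106, limma). After the length and GC correction CDK6 alone of the 14 was called, lower at -0.31 (adjusted p = 0.0295, limma). Without HCT116-CD276KO replicates 2 and 3 its adjusted p-value was 0.354 (limma). Of the 14, CDC20 stood at 285 ± 11.4 and 278 ± 19.7 TPM and CDK1 at 201 ± 21.9 and 203 ± 17.2 TPM (SD, n = 5 each).

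A list of 28 genes known as targets of RUNX proteins in blood, bone, T cells or epithelium held 12 with a mean of at least 1 TPM. No call was made by limma among the 12, of which 3 fell under 0.05 without adjustment. The median log2 change of the 12 was -0.10, with values from -0.35 to 0.36. The 2 with the highest levels were the growth regulator MYC, with a log2 change of -0.08 (standard error 0.07), and the cell cycle inhibitor CDKN1A, with -0.12 (standard error 0.08). Named after their values were seen, SPP1 (osteopontin, a RUNX2 target in bone) ranged from 1.11 to 1.53 TPM in HCT116-WT and from 1.78 to 2.33 TPM in HCT116-CD276KO libraries, and ITGAE, the integrin CD103, from 35.94 to 41.7 TPM and from 41.94 to 56.08 TPM. The groups did not overlap for SPP1 or ITGAE, and their adjusted p-values were 0.0683 and 0.0512 (limma). With the length and GC correction these were 0.0176 and 0.0297, under the threshold, but without HCT116-CD276KO replicates 2 and 3 they were 0.220 and 0.172 (limma). The third target with an unadjusted p-value under 0.05, also named after its values were seen, was the collagen gene COL1A1, with a log2 change of -0.35 (standard error 0.13, adjusted p = 0.157, limma) and overlapping groups. The remaining 16, among them the bone genes BGLAP, IBSP and SP7 and the blood genes CSF1R, IL3 and MPO, were below the limit for testing.

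**Figure D4:**
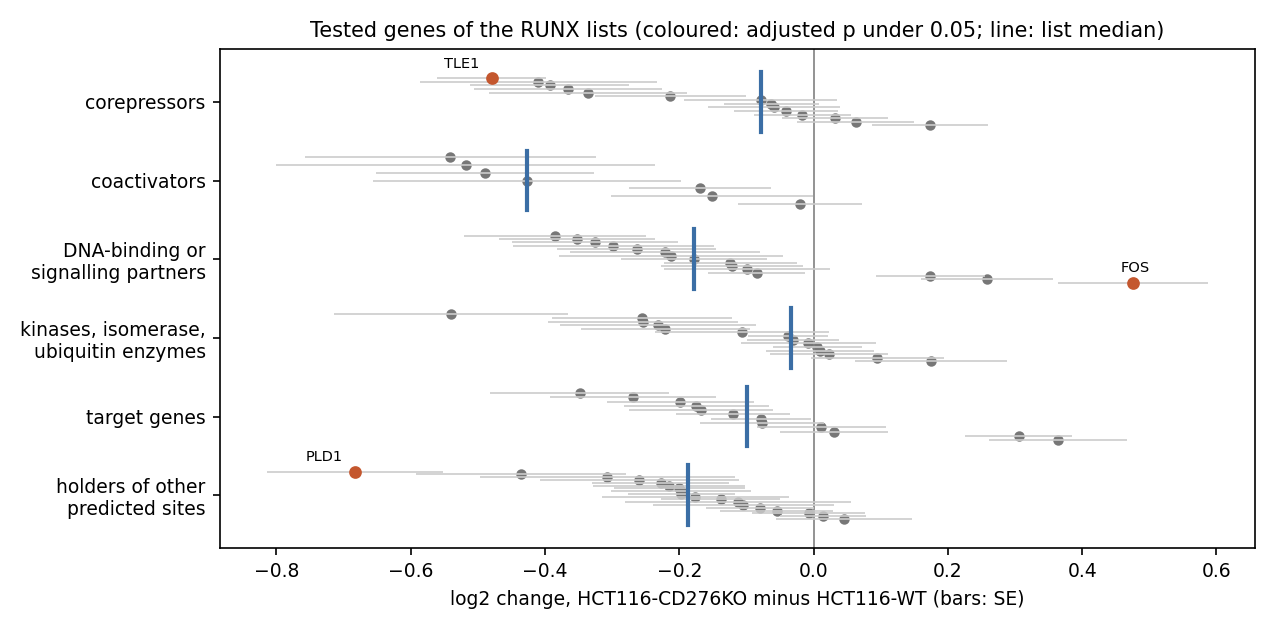
Log2 change (x axis, bars are standard errors) of the tested genes in each list on the y axis; coloured points have an adjusted p-value under 0.05 from limma and the vertical line in each row is the list's median. One called corepressor is left out of the plot but counted in its median; of the genes shown TLE1 and PLD1 were called lower and FOS higher.

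Other genes with a predicted site of the same guide in an intron or exon were compared, to set RUNX1 beside them. The paper reported that no gene with a predicted site was in its own list of changed genes, which rests on limma/voom on counts. The calls given here rest on limma on log2 TPM, so the methods differ. Of the 28 other names, 24 were found in the table and 18 were tested. PLD1, phospholipase D1, was the one called, lower in HCT116-CD276KO cells with a log2 change of -0.68 (standard error 0.13, adjusted p = 0.0121, limma). It was called in each of the 10 fits that left out 1 library, and without HCT116-CD276KO replicates 2 and 3 its adjusted p-value was 0.0635. The other 17 had log2 changes between -0.44 and 0.05. Their count of 1 in 18, 5.56%, stands beside 4.87% of all genes tested. The median log2 change of the 18 was -0.19 against -0.09 for all genes tested. Below 0 were 16 of the 18, and 9243 of all 13581 genes tested. After the length and GC correction the median was -0.01 against 0.01. Below 0 were then 10 of the 18, and 6322 of 13472 genes.

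The genes with the pattern most like RUNX1 over the 10 libraries, by Pearson's r of log2(TPM + 1), were RPN1 (r = 0.990), PPARD (r = 0.978), DUSP4 (r = 0.977) and CXCL16 (r = 0.976). For RUNX3 and CBFB r was 0.32 and 0.07. When each library was expressed as its deviation from its group mean, the genes most like RUNX1 were USP39 (r = 0.979), ARHGAP23 (r = 0.974), CARD10 (r = 0.971) and FOSL2 (r = 0.963), and r was -0.13 for RUNX3 and 0.74 for CBFB. The points share libraries and with them depth and trend with transcript length, so these values are a description.

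The RUNX motif was also counted in the promoters of the called genes. At least 1 match of TGTGGT on either strand was present for 66 of 410 genes called lower (16.1%) and 8 of 74 called higher (10.8%) with a RefSeq promoter, against 1255 of 9851 genes tested (12.7%). These shares were not tested.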

How the data were processed

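RNA of 10 HCT116 cultures was measured. The authors mapped reads to GRCh38 (hg38) with STAR 2.5.2b and quantified Ensembl 86 genes with RSEM 1.3.0 and featureCounts 1.5.1, per the paper's methods and the submitters' processing notes, and deposited TPM values. Which program gave the TPM is not given in the sources used here. No columns of the table were left out.

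The 13581 genes that averaged 1 TPM or more were compared on log2(TPM + 1) with limma 3.58.1 in R 4.3.3 (variance trend on, p-values adjusted by Benjamini-Hochberg over the whole set), since the counts behind the authors' limma/voom comparison were not used here. Other steps used Python 3.11.15. The members, lists and alternatives were chosen with earlier results of these data known. Symbols, positions and transcript lengths came from GENCODE 44 on hg38, and 41444 of 58050 identifiers had a symbol. The length and GC correction subtracted from each library a local regression of its deviations (span 0.3, 13472 genes). For the change of RUNX2 and for the overlap of the members it was run over the genes above 0 TPM. Named were the members, CD276, the called genes of each list (or else the 2 with the highest TPM), the nearest neighbours tested, genes inside a member and the 4 genes most like RUNX1. Genes outside this rule are EP300, CREBBP, CDK6, JUN, CEBPA, GART, SIM2, CRYZL1, SPP1, ITGAE and COL1A1 and those named only as below the limit for testing. The result of 1 called corepressor is not reported here. The code was tested on simulated data. Replicates are cultures, and p-values set the difference between the groups against the spread between cultures. The edited cultures came from the same clone, so the p-values hold nothing on the spread between clones.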

Additional observations from a re-analysis of the deposited data

Results flagged for a closer look

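Among the 10 groups of 5 values examined (RUNX1, RUNX2, RUNX3, CBFB and CD276 in HCT116-WT and in HCT116-CD276KO libraries), 1 held a library that stood apart from the others. RUNX2 was listed at 0.34 TPM in HCT116-WT replicate 3, while the remaining HCT116-WT libraries held 0.54 to 0.62 TPM, a gap of 0.714 of the range against a limit of 0.71 that chance passes in about 1 of 20 groups. Without this library the log2 change of RUNX2 was -0.40.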

How the results depend on the processing

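The number of reads behind a TPM value is not known, which limits RUNX2 most. The omission of HCT116-CD276KO replicates 2 and 3 was chosen after seeing the data. Of 165 combinations of a result and another setting 130 stayed within the spread between replicates or, for counts, within 1.5 times. The 130 include log2 changes of the members that could not have moved. The replicate block or another minimum level for the genes compared leaves a log2 change as it was. Leaving out 1 library at a time cannot shift it by as much as the spread with groups of this size. The count of 130 is therefore not a measure of stability. Log2 changes moved to -0.48 for RUNX1 and -0.22 for RUNX2 with the length and GC correction, to -1.10 and -1.45 for RUNX2 with a pseudocount of 0.1 TPM and as a ratio of means, and to 0.149 for CBFB with median-of-ratios factors. Without 1 library at a time they ranged from -0.75 to -0.60 for RUNX1, -0.40 to -0.33 for RUNX2, -0.25 to -0.07 for RUNX3 and 0.01 to 0.09 for CBFB.

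The number of genes called was 662 (556 lower, 106 higher), 583 with median-of-ratios factors (386 lower, 197 higher), 638 with quantile normalization (385 lower, 253 higher), 1299 with the length and GC correction (699 lower, 600 higher), 378 with the replicate number as a block, 339 without HCT116-CD276KO replicates 2 and 3, and 343 to 857 without 1 library (343 to 421 without HCT116-WT replicate 1, 2, 4 or 5 or HCT116-CD276KO replicate 3 or 4). Called partners and modifiers numbered 3, but 6 with the length and GC correction, 1 over all genes above 0 TPM, 1 with the replicate block, 1 without HCT116-CD276KO replicates 2 and 3 and 1 to 4 without 1 library (1 without HCT116-WT replicate 1, 2, 4 or 5 or HCT116-CD276KO replicate 4). Called targets numbered 0, but 1 at a mean of at least 5 TPM, 1 with median-of-ratios factors, 2 with quantile normalization, 2 with the length and GC correction and 0 to 2 without 1 library (2 without HCT116-CD276KO replicate 1). Called neighbours numbered 3, but 5 with median-of-ratios factors, 5 with quantile normalization, 6 with the length and GC correction and 2 to 5 without 1 library (5 without HCT116-CD276KO replicate 5). Called holders of other predicted sites numbered 1, but 0 at a mean of at least 5 TPM, 2 with the length and GC correction and 0 without HCT116-CD276KO replicates 2 and 3. The cause was not tested. Same-numbered replicates did not pair: the correlations of their deviations ran from -0.18 to 0.12, and 1 of the 10 libraries was closest to the library of its own number.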
